A study of Mus musculus with 18 samples.

Results

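The interferon response genes described here are a list of 44 mouse genes whose transcription rises when a cell receives a type I or type II interferon. A gene was counted as measured where the chip annotation assigned at least 1 probe set to that gene alone, and the one that varied most over the 18 arrays stood for it. By this rule 41 of the 44 were measured, among 18193 genes in all. The probe set for Isg15, a ubiquitin-like protein, was assigned to Isg15 and Gm9706, and that for Trex1, a DNA exonuclease, to Atrip and Trex1, so neither was used. Ifi44 was not matched to a probe set here. The 41 genes comprise 5 transcription factors, 6 sensors of foreign nucleic acid and their cofactors, 5 genes of the IFIT and ISG15 system, 12 antiviral effectors such as the Mx and OAS families, 3 ADP-ribosyltransferases, 2 guanylate-binding proteins, 3 genes of antigen processing and 5 other induced genes.

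The study measured RNA of freshly sorted, untreated CD4+ T cells from lymph nodes and spleen of B6;129 mice on 18 Affymetrix arrays, to set regulatory T cells (Treg cells) with a substituted Foxp3 beside those with the wild-type protein. Every mouse carried a pair of marked Foxp3 alleles, with human CD2 (hCD2) on one and GFP on the other, and ages were not given. Foxp3 lies on the X chromosome, so a Treg cell of such a mouse uses one allele, and mutant Treg cells developed beside wild-type ones in the same animal. From FoxP3WT:hCD2/WT:GFP mice came conventional T cells without either marker (Tconv, 2 arrays), wild-type Treg cells with GFP (WT GFP, 2 arrays) and wild-type Treg cells with hCD2 (WT hCD2, 2 arrays, numbered 3 and 4). From mice with Foxp3 A384T on the hCD2 allele came the hCD2+ mutant cells (A384T, 3 arrays) and their GFP+ wild-type neighbours (3 arrays). The hCD2+ cells of mice with I363V or R397W on that allele gave 3 arrays each. The labels do not say that arrays are separate animals, and a p-value here reflects only the spread among these samples, which may be technical.

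Interferons act through receptors whose Janus kinases phosphorylate STAT proteins. Type I interferon brings Stat2 and Irf9 into a complex that binds the interferon-stimulated response element (ISRE), and interferon-gamma acts through the GAS element. The induced genes block viral translation and replication, present antigen and feed back on the pathway. In T cells their level is commonly read as a sign of recent interferon exposure.

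Values are log2 values that the authors shifted so that the Tconv arrays average 0 at every probe set. A value of 1 is thus a doubling over the Tconv mean, and levels of different genes cannot be compared. In 1 limma fit of all 18 arrays, a gene was called changed where its p, adjusted by Benjamini-Hochberg across the 18193 genes, was under 0.05, and differences are given ± SE from that fit. The sort was checked first: Foxp3 was 150-fold higher in wild-type Treg cells than in Tconv (limma, adjusted p = 1.09e-11), and the mean of 5 Treg markers lay between 4.13 and 5.10 on every Treg array. In bulk samples such as these, fewer cells of a type and less RNA per cell cannot be told apart.

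Of the 5 genes called in a comparison of all arrays, Gbp3, Isg20 and Ifit2 have entries in the RefSeq promoter table (GRCm38.p6). Which of their annotated starts these cells use, and which bases regulate them, was not tested. The 250 bases before the most upstream start of each gene in that table are printed. Each is written 5′ to 3′ on the strand of the gene, with no part marked, since no element was searched for.
Gbp3 (chr3:142559794-142560043, plus strand): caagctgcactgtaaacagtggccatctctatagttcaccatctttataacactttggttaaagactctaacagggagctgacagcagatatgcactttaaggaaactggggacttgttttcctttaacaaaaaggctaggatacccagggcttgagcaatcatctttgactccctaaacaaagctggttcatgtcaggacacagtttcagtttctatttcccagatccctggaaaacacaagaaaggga
Isg20 (chr7:78913174-78913423, plus strand): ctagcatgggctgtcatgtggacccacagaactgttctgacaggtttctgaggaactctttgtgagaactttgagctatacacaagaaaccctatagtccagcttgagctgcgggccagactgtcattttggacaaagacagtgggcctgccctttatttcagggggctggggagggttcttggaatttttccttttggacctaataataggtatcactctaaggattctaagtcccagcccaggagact
Ifit2 (chr19:34550444-34550693, plus strand): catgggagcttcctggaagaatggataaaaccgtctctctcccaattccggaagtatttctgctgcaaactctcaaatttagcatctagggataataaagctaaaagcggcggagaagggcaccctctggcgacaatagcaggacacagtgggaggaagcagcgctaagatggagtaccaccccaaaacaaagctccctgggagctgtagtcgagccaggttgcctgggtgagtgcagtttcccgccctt
G and C made up 42.4% of the window of Gbp3, 48.0% of that of Isg20 and 52.0% of that of Ifit2. The further starts of these genes gave 42.8% in Gbp3, 54.8% and 58.0% in Isg20 and 52.4% in Ifit2. Over the 30 of 41 interferon response genes with an entry the median was 54.2%, beside 57.6% over the 14452 measured genes with one. Those medians use the mean over all starts of a gene, so the values of the printed windows are not directly comparable.

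Most of the interferon genes shifted together between arrays of one group, and the medians of the Treg groups lay close together. The median of the 41 genes was 0.17 and -0.17 on the Tconv arrays, 0.54 and 0.14 in WT GFP, and 0.43 and 0.10 in WT hCD2. It was 0.28, 0.44 and 0.35 in the wild-type cells of A384T mice, 0.22, 0.41 and 0.34 in A384T, 0.52, 0.11 and 0.35 in I363V, and 0.43, -0.05 and 0.45 in R397W. The Treg groups overlapped one another, and several Treg arrays, R397W 2 the lowest, lay below Tconv 1. As group means the medians ran from 0.26 ± 0.23 (SD, n = 2) in WT hCD2 to 0.36 ± 0.08 (SD, n = 3) in the wild-type cells of A384T mice.

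Within groups the shift between arrays touched most of the genes. Tconv 1 exceeded Tconv 2 in 35 of 41 genes, by a median of 0.35, where 53.3% of all genes were higher. WT GFP 1 exceeded WT GFP 2 in 37 of 41, by a median of 0.49, where 52.2% of all genes were higher. WT hCD2 3 exceeded WT hCD2 4 in 34 of 41, by a median of 0.39, where 48.5% of all genes were higher. The genes higher in the first-named array of all 3 groups numbered 32 of 41 (78.0%), beside 28.1% of all genes. Ifih1, a sensor of long double-stranded RNA, Eif2ak2, the kinase that stops translation on such RNA, and Mx1, an antiviral GTPase, ran the other way in each of these groups. For Eif2ak2 this held only for the probe set used. Of its other probe sets, one read 0.70 and 0.53 in WT hCD2 3 and 4, and another 0.46 and 0.38 in WT GFP 1 and 2. I363V 1 exceeded I363V 2 in 32 of 41, by a median of 0.39, where 54.1% of all genes were higher. R397W 2 exceeded R397W 3 in 10 of 41, where 40.8% of all genes were higher, so that a shift of the whole array ran the same way. No pair of arrays within A384T or within its wild-type neighbours differed by a median of more than 0.11 in size. Whether handling, batch or the animals set these shifts was not tested.

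**Figure D1:**
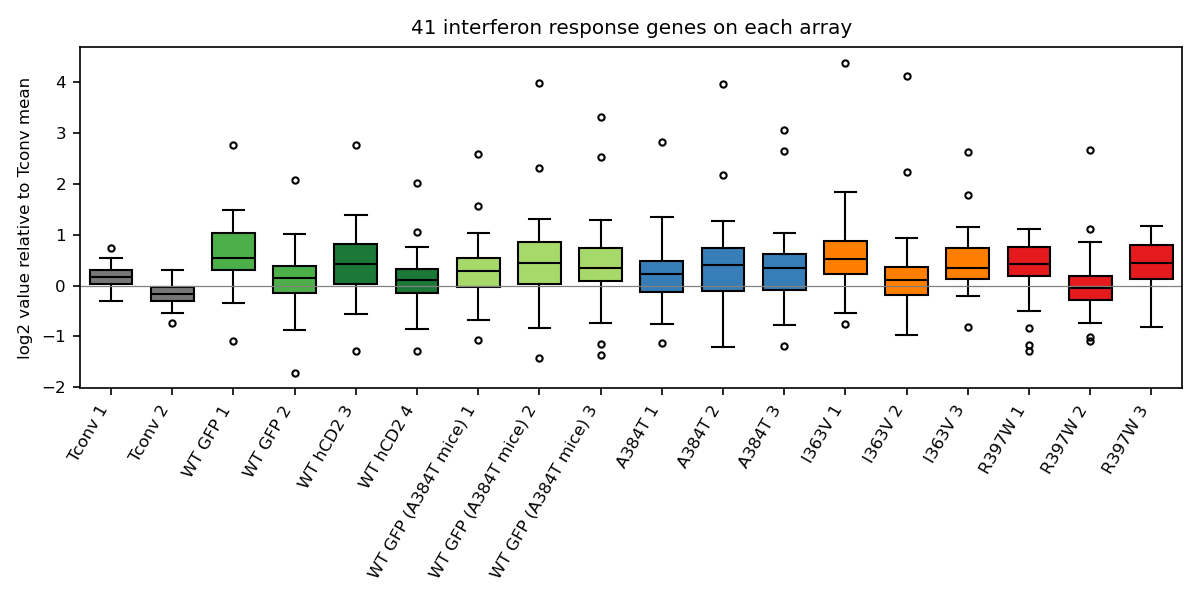
Boxes show the 41 interferon response genes on each of the 18 arrays, as log2 value relative to the Tconv mean, coloured by group. The boxes of Tconv 1, WT GFP 1 and WT hCD2 3 sit above those of the other array of their group, with medians of 0.17, 0.54 and 0.43 against -0.17, 0.14 and 0.10.

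**Figure D2:**
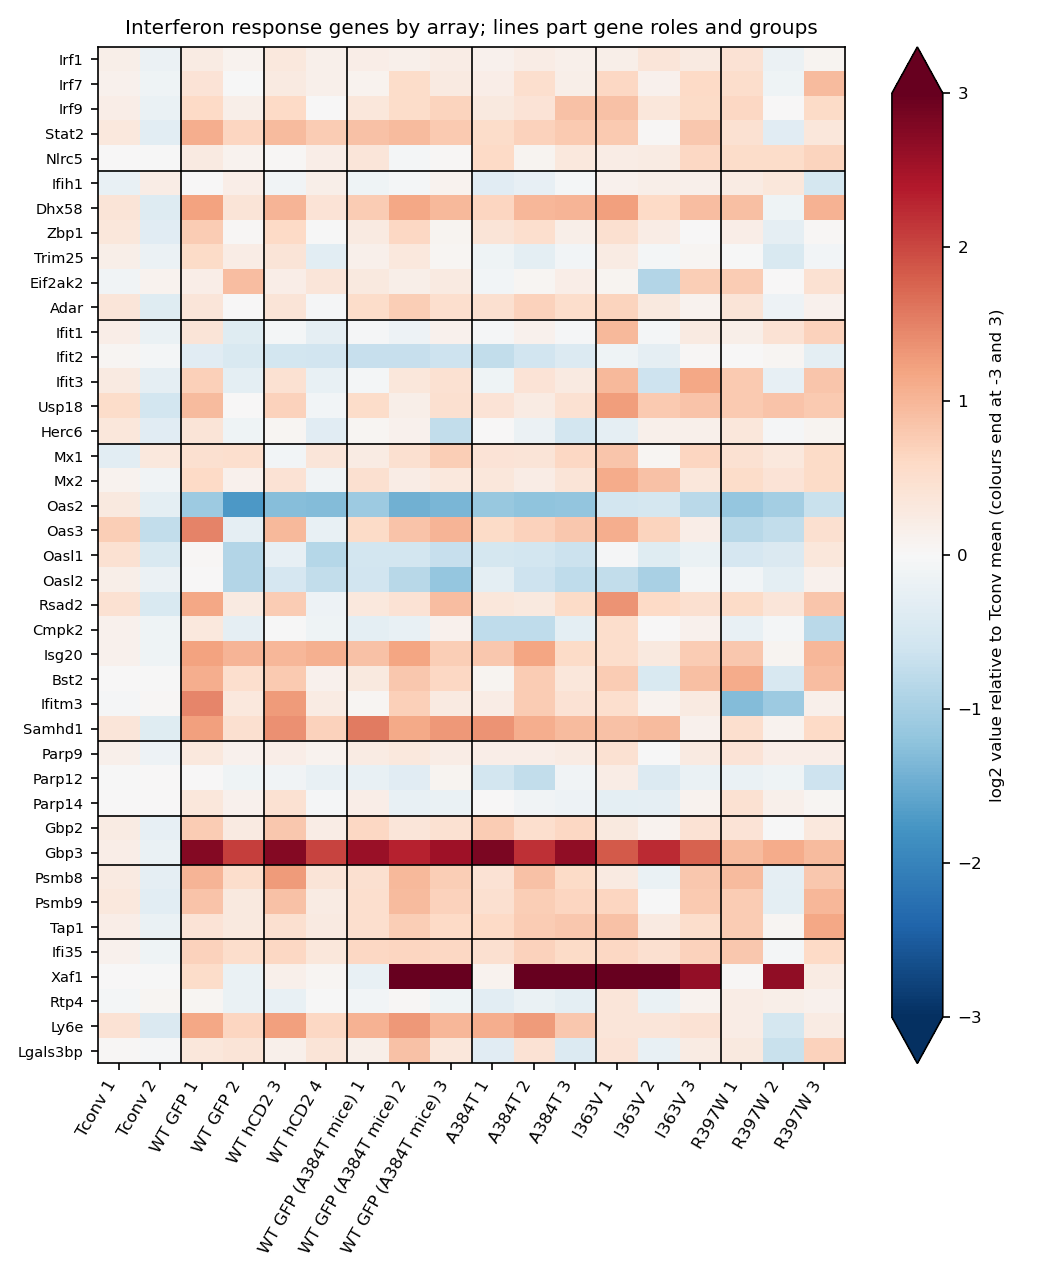
Colours give the log2 value relative to the Tconv mean for each gene (vertical axis, lines part the roles) on each array (horizontal axis, lines part the groups). Gbp3 is red on all Treg arrays and paler in R397W, Oas2 is blue on all Treg arrays, and Xaf1 alternates between values near 0 and values above 2 within groups.

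Wild-type Treg cells (4 arrays, the mean of WT GFP and WT hCD2) differed from Tconv in 4 of the 41 genes. Gbp3 and Isg20 rose, and Oas2 and Ifit2 fell, while 5.84% of all genes were called, 3.81% higher and 2.03% lower. Of the 41 genes 32 were positive and 9 negative, where 47.0% of all genes were positive, and the median was 0.31 beside -0.01 for all genes. The median was 0.135 without Tconv 2, 0.16 without WT GFP 1, 0.19 without WT hCD2 3 and 0.21 with the mean of all probe sets. At an unadjusted p under 0.05 stood 11 of the 41, 9 of them higher, beside 15.4% of all genes.

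Gbp3 is a guanylate-binding protein, one of the large GTPases that assemble on vacuoles of intracellular pathogens. It measured 0.21 and -0.21 in Tconv, 2.76 and 2.07 in WT GFP, and 2.76 and 2.02 in WT hCD2. All wild-type Treg arrays lay far above both Tconv arrays, and the difference was 2.40 ± 0.24, or 5.28-fold (limma, adjusted p = 1.23e-05). Gbp3 is measured by a single probe set, in a family of similar genes, so a share of its signal from relatives cannot be told apart. The other member of that family on the list, Gbp2, was 0.51 ± 0.20 higher and not called (limma, adjusted p = 0.196).

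Among the antiviral effectors, genes went in both directions. Isg20, an exonuclease that degrades single-stranded RNA, measured 0.14 and -0.14 in Tconv, 1.20 and 1.02 in WT GFP, and 0.99 and 1.06 in WT hCD2. These groups did not overlap, and the difference was 1.07 ± 0.23, or 2.10-fold (limma, adjusted p = 0.0106). Without Tconv 2 it was 0.93 and no longer called (limma, adjusted p = 0.159). Oas2 makes the 2-5A messenger that activates RNase L, and it measured 0.29 and -0.29 in Tconv, -1.09 and -1.72 in WT GFP, and -1.28 and -1.29 in WT hCD2. Every Treg array of the study, mutants included, lay below both Tconv arrays. The wild-type difference was -1.34 ± 0.20, that is 2.54-fold lower (limma, adjusted p = 0.000504). Its relatives Oasl2 (-0.53 ± 0.27) and Oasl1 (-0.49 ± 0.29) did not pass the test (limma, adjusted p = 0.393 and 0.49). Oasl1 was -0.04 without Tconv 1 and -0.94 without Tconv 2. Oas3, which makes the same messenger, had one of the widest ranges: it measured 1.49 and -0.28 in WT GFP and 0.74 and -0.74 in Tconv, so that the groups overlapped. Samhd1, which depletes the nucleotides that viral DNA synthesis needs, was 0.95 ± 0.29 higher and missed the threshold (limma, adjusted p = 0.0783). With the mean of its 5 probe sets, each 0.63 to 0.95 higher, the difference was 0.85 ± 0.12 and was called (limma, adjusted p = 0.000263).

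In the IFIT and ISG15 system, 2 of 5 genes were positive and 3 negative. Ifit2 binds viral RNA and restrains its translation. It measured 0.05 and -0.05 in Tconv, -0.35 and -0.45 in WT GFP, and -0.56 and -0.57 in WT hCD2. The arrays did not overlap, and the difference was -0.48 ± 0.12, or 1.40-fold lower (limma, adjusted p = 0.03), a call that was lost whenever 1 of the 6 arrays was left out. Its limma adjusted p then ran from 0.0501 to 0.212. Ifit1 (-0.08 ± 0.25) and Ifit3 (0.16 ± 0.46), which act beside it, stayed within their error.

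All 5 transcription factors were positive, from 0.15 to 0.86, and none was called. Stat2, the type I interferon STAT, was the highest at 0.86 ± 0.25 (limma, adjusted p = 0.0683). All 3 genes of antigen processing were positive as well, led by Psmb8, an immunoproteasome subunit, at 0.81 ± 0.35 (limma, adjusted p = 0.283). Ly6e, a surface protein induced by interferon, was 0.92 ± 0.27 higher (limma, adjusted p = 0.0625).

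**Figure D3:**
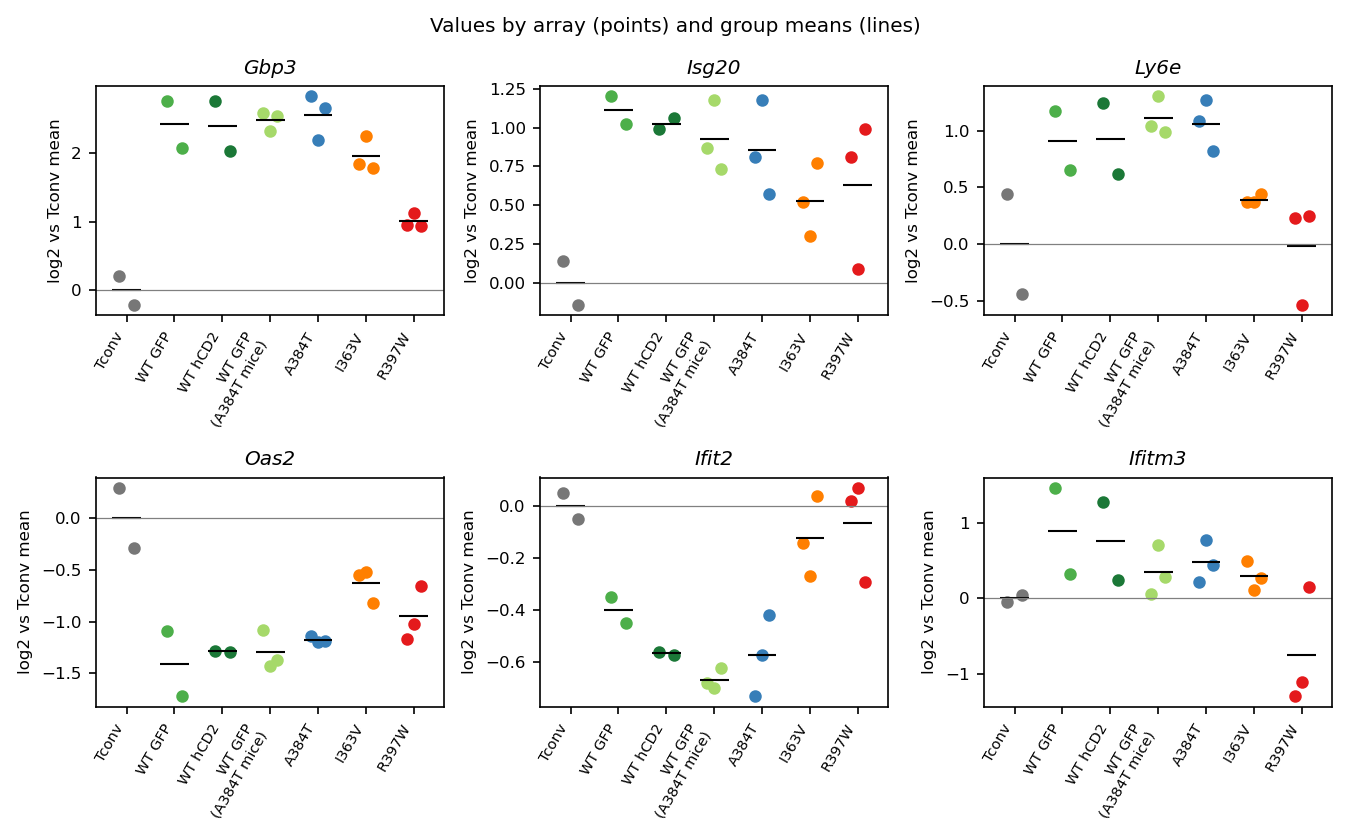
Points are arrays and lines group means of the log2 value relative to the Tconv mean, for the 5 genes called in a comparison across all 18 arrays and for Ifitm3. The 3 R397W arrays of Gbp3, at 0.94 to 1.12, lie below all other Treg arrays, and all Treg arrays of Oas2 lie below Tconv.

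Wild-type cells with different markers, WT hCD2 and WT GFP, differed in none of the 41 genes (limma), while 0% of all genes were called. At an unadjusted limma p under 0.05 stood 0 of the 41, beside 2.54% of all genes. Of the 41, 8 were positive and 33 negative in WT hCD2 against WT GFP, with a median of -0.08, where 52.3% of all genes were positive. The wild-type GFP cells of A384T mice likewise differed from those of wild-type mice in none of the 41 (limma, 0% of all genes called), with a median of -0.03. In that comparison 0 of the 41 had an unadjusted limma p under 0.05, beside 2.6% of all genes.

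The mutants were each set against WT hCD2, which carries the same marker, so these 3 comparisons share those 2 control arrays. The WT hCD2 cells came from other mice than the mutant cells, and no wild-type cells of I363V or R397W mice were measured. Here and between mutants, an effect of the substitution cannot be told apart from differences between the mice or their handling. A384T and I363V cells differed from WT hCD2 in none of the 41 genes, and R397W cells in 1, Gbp3, which fell. The median difference of the list was 0.06 for A384T, 0.13 for I363V and 0.00 for R397W. For all genes it was -0.02 in each of them. Leaving out single arrays moved the list medians from -0.18 to 0.24 in A384T, from -0.02 to 0.26 in I363V and from -0.17 to 0.23 in R397W, so that none kept its sign.

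In A384T cells, where 0.28% of all genes were called, 24 interferon genes were positive and 17 negative, beside 45.5% of all genes positive. A single one had an unadjusted limma p under 0.05, beside 8.07% of all genes: Cmpk2, a nucleotide kinase next to Rsad2 that makes precursors of its antiviral product, at -0.54 ± 0.25 (limma, adjusted p = 0.613). It measured -0.76, -0.77 and -0.29 in A384T and -0.01 and -0.13 in WT hCD2. The A384T arrays were all lower, but the gap from the nearest was small. With the mean of its 2 probe sets the difference was -0.21 (limma, adjusted p = 0.677). The next lowest differences were those of Lgals3bp, a secreted glycoprotein (-0.38 ± 0.34), and Parp12, an ADP-ribosyltransferase (-0.30 ± 0.21). The highest were Xaf1 (2.27 ± 1.20), Adar, which edits double-stranded RNA (0.39 ± 0.23), and Tap1, a peptide transporter (0.34 ± 0.25). With the mean of all its probe sets Tap1 was at -0.05. Gbp3 was 2.82, 2.18 and 2.65 in A384T, inside and just above the range of WT hCD2, with a difference of 0.16 ± 0.25 (limma, adjusted p = 0.91).

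In I363V cells 0.912% of all genes were called, 0.231% higher and 0.682% lower. Of the interferon genes 27 were positive and 14 negative, where 45.4% of all genes were positive. The limma test left 4 of them at an unadjusted p under 0.05, beside 8.94% of all genes, and these 4 were higher: Ifit2 (0.44 ± 0.13), Mx2, an antiviral GTPase (0.62 ± 0.21), Oas2 (0.65 ± 0.21) and Xaf1 (3.61 ± 1.20). Oas2 measured -0.55, -0.52 and -0.82 in I363V, above -1.28 and -1.29 in WT hCD2 and still below Tconv. All 5 genes of the IFIT and ISG15 system were positive, from 0.16 in Herc6 to 0.66 ± 0.31 in Usp18, the protease that removes ISG15 (limma, adjusted p = 0.576). The lowest values were those of Ly6e (-0.53 ± 0.28), Psmb8 (-0.53 ± 0.37) and Isg20 (-0.50 ± 0.24). Without WT hCD2 3 Ly6e was -0.23 and Psmb8 -0.08, and without WT hCD2 4 they were -0.84 and -0.98. Gbp3, at 1.84, 2.24 and 1.78, overlapped WT hCD2, with a difference of -0.44 ± 0.25 (limma, adjusted p = 0.697).

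In R397W cells 2.26% of all genes were called, 0.715% higher and 1.55% lower. The 41 genes were split into 21 positive and 20 negative, where 46.3% of all genes were positive. An unadjusted limma p under 0.05 was reached by 7 of the 41, 3 higher and 4 lower, beside 11.7% of all genes. Among them were the transcription factors Nlrc5 (0.48 ± 0.16) and Stat2 (-0.68 ± 0.27), neither of them called (limma, adjusted p = 0.197 and 0.291). Gbp3 measured 0.95, 1.12 and 0.94 in R397W and 2.76 and 2.02 in WT hCD2. The R397W arrays were close together, below all other Treg arrays and above Tconv. The difference was -1.38 ± 0.25, or 2.61-fold lower (limma, adjusted p = 0.00886). It was -1.01 and not called without WT hCD2 3 (limma, adjusted p = 0.167), and not called in a fit of these groups alone (limma, adjusted p = 0.138).

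Ifitm3, which traps viruses in endosomes, had the lowest difference in R397W at -1.51 ± 0.42, and it was not called (limma, adjusted p = 0.0866). It measured -1.29, -1.10 and 0.15 in R397W and 1.27 and 0.25 in WT hCD2. R397W 3 thus lay just under WT hCD2 4 and far from the other R397W arrays. Without R397W 3 the difference was -1.96 and called (limma, adjusted p = 0.0127), and without WT hCD2 3 it was -0.996 (limma, adjusted p = 0.622). In a fit of these groups alone the limma adjusted p was 0.507. Ly6e followed at -0.95 ± 0.28 (limma, adjusted p = 0.122), but its other probe set gave 0.39. Oas3 had values of -0.83, -0.74 and 0.49 in R397W, again with R397W 3 apart, beside 0.98 and -0.23 in WT hCD2.

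The highest values in R397W were those of Xaf1 (0.87 ± 1.20), Ifit1 (0.60 ± 0.27) and Oasl2 (0.54 ± 0.29), none of them called (limma, adjusted p = 0.891, 0.392 and 0.532). All 5 genes of the IFIT and ISG15 system were positive, from 0.28 to 0.60, as they were in I363V against the same control arrays. In WT hCD2 against WT GFP these 5 genes were all negative, with a median of -0.17. Herc6, the ligase that attaches ISG15, averaged 0.13 ± 0.36 (SD, n = 2) in WT GFP, 0.13 ± 0.19 (SD, n = 3) in R397W and 0.01 ± 0.25 (SD, n = 3) in I363V. These groups overlapped. The other genes of the 5 averaged higher in both mutants than in WT GFP. Ifit2 averaged -0.07 in R397W, -0.13 in I363V and -0.40 in WT GFP, without overlap of arrays. In the same order Ifit1 averaged 0.44, 0.40 and 0.01, Usp18 0.80, 0.96 and 0.48, and Ifit3 0.46, 0.50 and 0.20, with overlap. These differences from WT GFP were not tested. Ifit2 measured 0.02, 0.07 and -0.29 in R397W, above -0.56 and -0.57 in WT hCD2, and the difference was 0.50 ± 0.13 (limma, adjusted p = 0.0648).

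Myeloid cells also express Ifitm3 and other genes of the list. The mean of 6 myeloid markers (6 of 6 measured) lay between -0.97 and -0.72 on the R397W arrays, -0.40 and -0.22 in I363V, -0.80 and -0.27 in A384T, and 0.00 and 0.07 in WT hCD2. Lyz2, the lysozyme of these cells, was at -1.83, -2.06 and -1.53 in R397W and at 1.17 and 0.53 in WT hCD2. It differed most of the 6. The others were Csf1r (-1.48), Fcgr3 (-0.73), Adgre1 (-0.32), Cd14 (-0.07) and Itgam (-0.04) in R397W against WT hCD2, so the markers did not fall alike. The mean of the Treg markers was also lower in R397W (4.13 to 4.32) than in WT hCD2 (4.89 to 5.03). Whether a marker is at background cannot be read from shifted values, and the part of either list in the Gbp3 and Ifitm3 values was not tested.

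**Figure D4:**
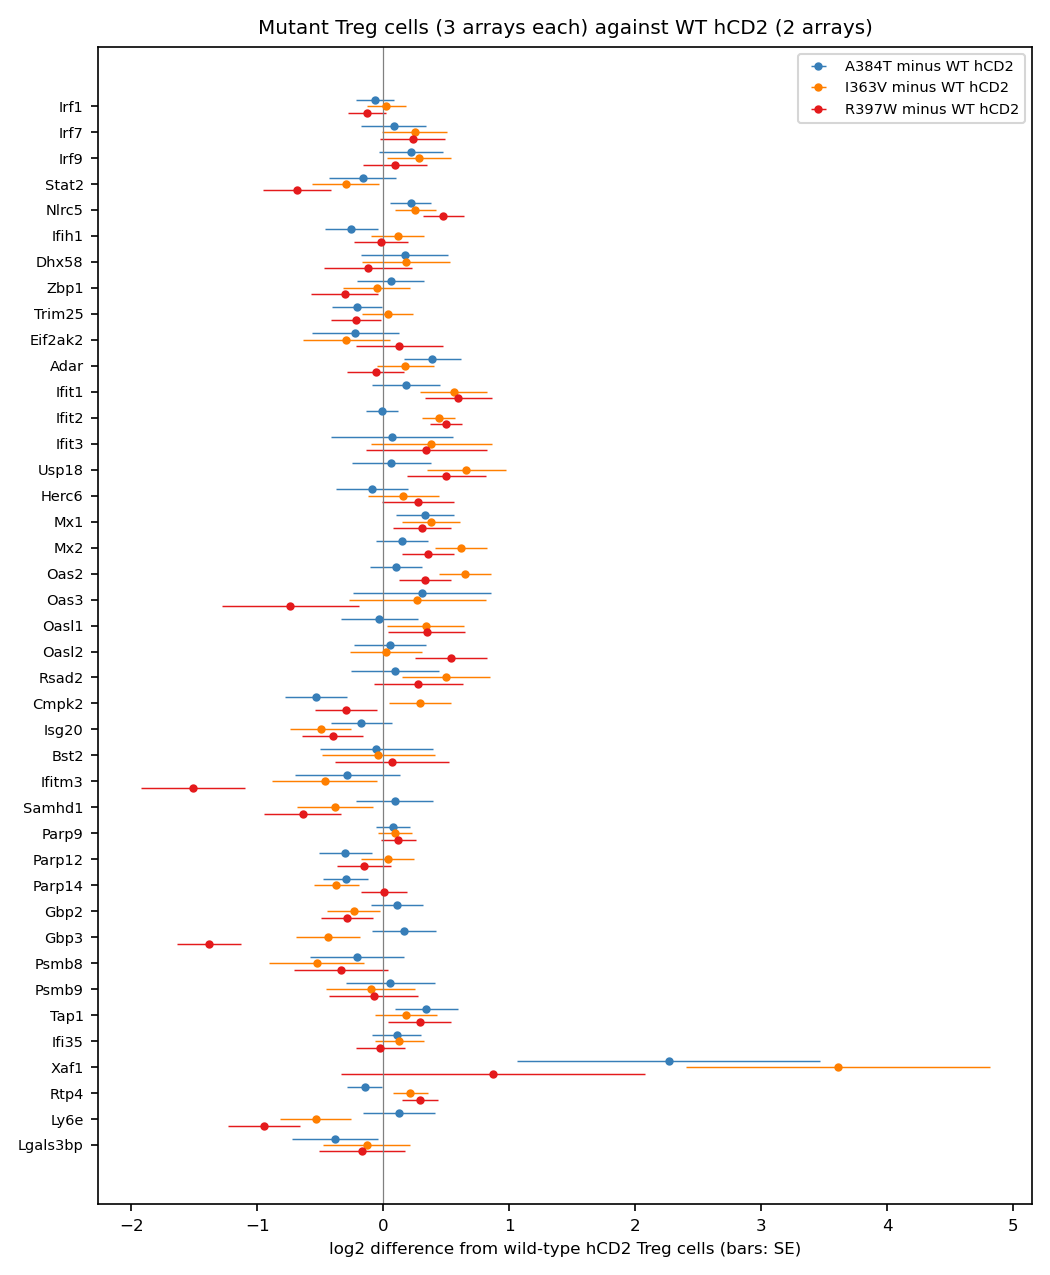
Points are the log2 differences of A384T, I363V and R397W cells (3 arrays each) from WT hCD2 (2 arrays) for the interferon response genes, with bars of 1 SE. Most points lie within 1 of 0; Gbp3 (-1.38) and Ifitm3 (-1.51) of R397W lie farthest to the left and Xaf1 of I363V (3.61) farthest to the right.

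Compared directly, A384T and R397W cells differed in 3 of the 41 genes (2 higher in A384T and 1 lower), where 3.13% of all genes were called, 2.22% higher and 0.907% lower. Gbp3 was 1.55 ± 0.23 or 2.92-fold higher in A384T (limma, adjusted p = 0.00139), and the arrays did not overlap. This comparison does not use the WT hCD2 arrays, but it also sets cells of different mice beside each other. Ly6e measured 1.08, 1.27 and 0.82 in A384T and 0.23, -0.53 and 0.25 in R397W. All A384T arrays were higher, by 1.07 ± 0.25 or 2.10-fold (limma, adjusted p = 0.0334). With the mean of its 2 probe sets the difference was 0.62 and not called (limma, adjusted p = 0.299). Ifit2 measured -0.73, -0.57 and -0.42 in A384T, all below R397W, and differed by -0.51 ± 0.12, or 1.42-fold (limma, adjusted p = 0.028). The Ly6e and Ifit2 calls were each lost without some single arrays, and that of Gbp3 held without each of the 6 in turn.

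A384T and I363V cells differed in none of the 41 genes (limma; 7 at an unadjusted p under 0.05, 5 of them lower in A384T, beside 8.65% of all genes; 1.14% of all genes called). The lowest limma adjusted p were those of Ifit2 (-0.45 ± 0.12, 0.0985) and Cmpk2 (-0.83 ± 0.22, 0.112). I363V and R397W cells also differed in none (limma; 5 at an unadjusted p under 0.05, beside 8.52% of all genes; 0.0824% of all genes called, 0.022% higher and 0.0605% lower). Gbp3 was 0.95 ± 0.23 higher in I363V (limma, adjusted p = 0.165), so that its order from A384T over I363V to R397W has a called difference only between its ends.

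Next to wild-type cells of the same mice, A384T cells differed in none of the 41 genes in the fit of all arrays (limma). There 0.522% of all genes were called. An unadjusted p under 0.05 was reached by 1 of the 41, beside 5.03% of all genes. The wild-type cells and the A384T cells carry array numbers 1 to 3, and arrays of equal number deviated together over all genes. With the number as a block in a fit of these groups alone, 2 genes were called, both lower, while 5.23% of all genes were called. In the same 6 arrays without the block 0 of the 41 were called, and 0.797% of all genes. The blocked fit has 2 residual degrees of freedom. Cmpk2 measured -0.76, -0.77 and -0.29 in A384T and -0.29, -0.22 and 0.14 in the wild-type cells. It was lower in every pair, by differences of -0.47, -0.55 and -0.44, and its blocked difference was -0.48 ± 0.08 (limma, adjusted p = 0.00772). Its other probe set was higher in A384T in each pair: it read -0.01, 0.04 and 0.14 in A384T and -0.10, -0.10 and -0.01 in the wild-type cells. Lgals3bp measured -0.34, 0.43 and -0.41 in A384T and 0.17, 0.87 and 0.35 in the wild-type cells, so that the groups overlapped while the pairs differed by -0.51, -0.44 and -0.77. Its blocked difference was -0.57 ± 0.09 (limma, adjusted p = 0.00688), and it was not called without the block. Trim25, a ubiquitin ligase of RNA sensing, came next at -0.35 ± 0.18 and was called in neither fit. The highest were Oasl2 (0.29 ± 0.26), Nlrc5, the activator of MHC class I genes (0.21 ± 0.15), and Gbp2 (0.14 ± 0.19).

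Xaf1, an inducer of apoptosis and the gene with the widest range (4.62), did not follow the groups. It was -0.23, 3.99 and 3.32 in the wild-type cells of A384T mice and 0.11, 3.96 and 3.06 in A384T cells. The array with number 1 was low and the others high in both, and the pairs differed by 0.34, -0.04 and -0.27. In I363V it was 4.39, 4.12 and 2.63, in R397W 0.03, 2.66 and 0.24, and on the Tconv and other wild-type arrays between -0.21 and 0.54. Its other probe set ranged over 1.08 only and gave -0.31 for I363V against WT hCD2, where the first gave 3.61.

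**Figure D5:**
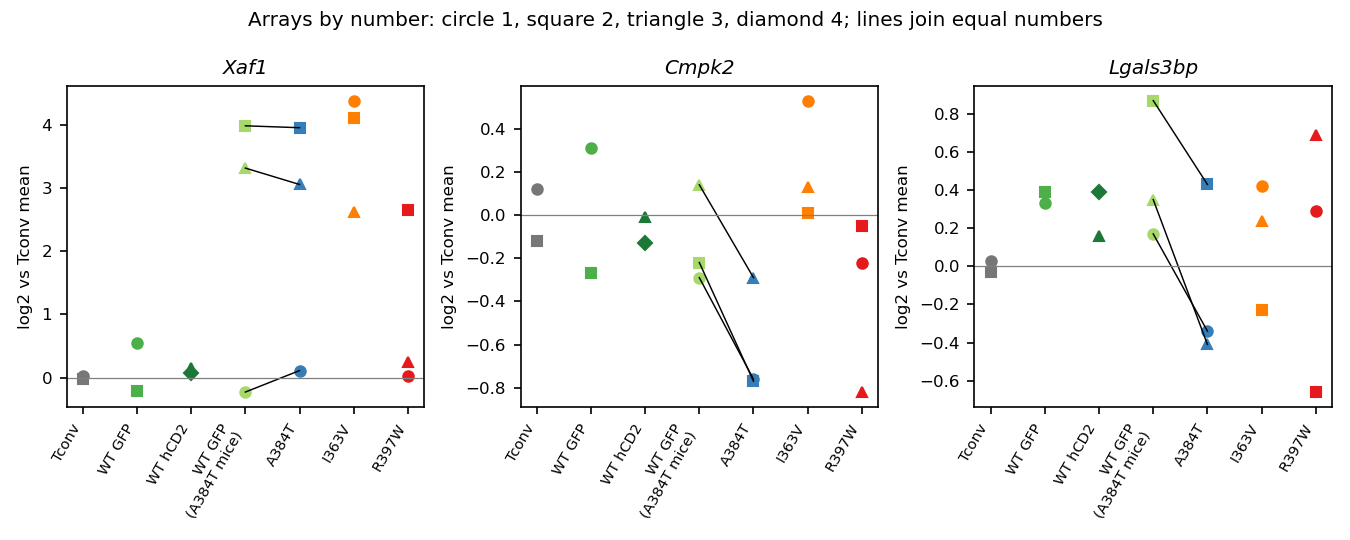
Symbols give the array number and lines join equal numbers of the wild-type and the A384T cells of A384T mice, as log2 value relative to the Tconv mean. Xaf1 is high for numbers 2 and 3 in both kinds of cell and low for number 1, while Cmpk2 and Lgals3bp are lower in A384T in each of the 3 pairs.

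Of 77 other measured genes of the pathway (interferons, receptors, kinases, sensors and further induced genes), 14 rose in wild-type Treg cells against Tconv and none fell, beside 3.81% of all genes higher and 2.03% lower. Their median was 0.27 beside -0.01 for all genes. This list was chosen with earlier results of these data known, so the excess is a description and not a test of the list. Irf4, a factor that effector Treg cells need, led at 1.86 ± 0.29 or 3.63-fold (limma, adjusted p = 0.000944). Tlr7, the endosomal sensor of single-stranded RNA, was 1.15 ± 0.16 higher (limma, adjusted p = 0.000311). Il10rb, a receptor chain of IL-10 and of type III interferon, was 0.92 ± 0.14 higher (limma, adjusted p = 0.000527). The other called genes were Ifi27l2a, Trim14, Ifitm2, Iigp1, Irf5, Tdrd7, Ube2l6, Gbp6, Tor3a, Pnp and Cd274, which encodes PD-L1, with differences of 0.52 to 1.19.

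Against WT hCD2, none of the 77 was called in A384T or in I363V (limma). At an unadjusted p under 0.05 stood 6 in A384T, beside 8.07% of all genes, and 7 in I363V, beside 8.94%. In R397W 3 rose and 1 fell, beside 0.715% of all genes higher and 1.55% lower, and the median of the 77 was -0.11. Ifngr2, the second chain of the interferon-gamma receptor, measured 0.88, 0.54 and 1.97 in R397W and -0.20 and -0.32 in WT hCD2. The R397W arrays were all higher, by 1.39 ± 0.29 (limma, adjusted p = 0.0217). Slfn5, a Schlafen protein, rose by 1.53 ± 0.30 (limma, adjusted p = 0.0127) and Uba7, the activating enzyme of ISG15, by 0.69 ± 0.17 (limma, adjusted p = 0.048). Il10rb was the gene that fell, by 0.83 ± 0.14 (limma, adjusted p = 0.00603).

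Ifng, which encodes interferon-gamma, was called different between A384T and R397W cells. Ifng measured 1.81, 1.83 and 1.45 in A384T, -0.50, 0.04 and -1.56 in R397W, -0.09, 1.96 and 0.14 in I363V, and 0.72 and 0.71 in WT hCD2. The A384T arrays were above WT hCD2 and the R397W arrays below it, but only the difference between the mutants was called, at 2.37 ± 0.45 or 5.18-fold (limma, adjusted p = 0.00932). Against WT hCD2 it was 0.99 ± 0.50 for A384T (limma, adjusted p = 0.664) and -1.39 ± 0.50 for R397W (limma, adjusted p = 0.236). Among the 77 genes 6 were higher in A384T than in R397W and 2 lower, beside 2.22% and 0.907% of all genes. The others higher were the chemokine Cxcl10 (1.54 ± 0.39), Ifitm2 (1.38 ± 0.27), Irf8 (1.18 ± 0.24), Irf5 (0.75 ± 0.18) and Il10rb (0.53 ± 0.13). The lower ones were Ifngr2 (-1.23 ± 0.26) and Slfn5 (-1.10 ± 0.27). Irf8 is also a marker of plasmacytoid dendritic cells. Of their other markers in A384T against R397W, Tcf4 was 1.08 ± 0.24 and Ccr9 1.27 ± 0.39 higher. Siglech, a defining receptor of these cells, was at -0.09 ± 0.15. Bst2, a marker of these cells that is also an interferon response gene, was at -0.12 ± 0.40 (limma, adjusted p = 0.763). The part of such cells was not tested. Ifitm2 was also higher in A384T than in I363V, by 1.27 ± 0.27 (limma, adjusted p = 0.0381). I363V and R397W differed in none of the 77 (limma, 8 at an unadjusted p under 0.05, beside 8.52% of all genes).

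In the fit of all arrays, none of the 77 was called between A384T cells and their wild-type neighbours (limma). An unadjusted limma p under 0.05 was reached by 7, beside 5.03% of all genes. With the array number as a block in a fit of these groups alone, 5 were higher and 7 lower, while 5.23% of all genes were called. This alternative was chosen for these genes after seeing the data. Ifng led the higher ones: A384T exceeded the wild-type cells by 1.32, 0.92 and 0.89 in the 3 pairs, with a blocked difference of 1.05 ± 0.10 (limma, adjusted p = 0.000538). Ifngr1, the ligand-binding chain of its receptor, was lower in each pair, by -0.72, -0.65 and -0.54 (limma, blocked, adjusted p = 0.00208). The DNA sensor Cgas (-0.70 ± 0.10) and Oas1a, a synthase of the 2-5A messenger (-0.61 ± 0.08), were also lower. The remaining higher genes were Iigp1, Ifitm2, Socs3, an inhibitor of cytokine signalling, and Irf8, at 0.43 to 0.48. The remaining lower genes were Pnp, Cxcl10, Epsti1 and Tor3a, at -0.45 to -0.38.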

How the data were processed

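RNA of 18 samples was measured on 18 arrays in 7 groups. The log2 values were deposited by the authors after RMA, as the submitters' processing notes record; the software and its version are not given in the sources used here, and the log base follows RMA's convention. At each probe set the Tconv mean had been subtracted (the Tconv values summed to at most 1e-06), so no filter on dim probe sets was possible. Precision is limited by how few arrays there are.

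Of 45101 probe sets, 34945 belonged to 1 gene by the chip annotation, 932 to more than 1 and 9211 had no gene; 13 controls were left out. The probe set with the largest variance stood for each of 18193 genes. All 18 arrays were fitted together by group with limma 3.58.1 in R 4.3.3 (lmFit and eBayes, 11 residual degrees of freedom). Tests were two-sided, with calls at a Benjamini-Hochberg adjusted p under 0.05. The fit was tried on simulated data with independent noise on every array. Some arrays here deviated together, so that trial does not give the error rate of these data. Tables and plots used Python 3.11.15, pandas 2.3.3, numpy 2.4.6 and matplotlib 3.10.9. Comparisons that share arrays are not independent.

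Members and lists were chosen with earlier results of these data known, so their counts set beside all genes are descriptions and not tests. Named were the genes called in a comparison, the 3 highest and the 3 lowest differences of Treg cells or a mutant against its control, the 5 widest ranges and the other pathway genes called. Genes named beyond this rule were chosen after their values were seen.

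Arrays of A384T cells and of their wild-type neighbours deviated together by number (correlations over all genes of 0.58 to 0.69 for equal numbers, -0.45 to -0.16 for others). This pairing comes from the data, as no label states it. Tconv and WT GFP arrays of equal number correlated at 0.71 over all genes, and WT GFP with WT hCD2 arrays at -0.77 to 0.77. With 2 arrays per group such values can differ only in sign, so they cannot establish a pairing. The fit of all arrays treated these arrays as independent. Alternatives were the mean of all probe sets, arrays centred on their medians, only the groups compared, robust eBayes, a stricter threshold, each array left out and the replicate block.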

Additional observations from a re-analysis of the deposited data

Results flagged for a closer look

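The effects of A384T and R397W, each measured against the same WT hCD2 arrays, differed for 3 interferon response genes by a limma test of the difference itself, in which the shared control cancels. The effect of A384T minus that of R397W was 1.55 for Gbp3, -0.51 for Ifit2 and 1.07 for Ly6e. This is the direct comparison of A384T and R397W given above, between cells of different mice, and not a further test. The calls of Ly6e and Ifit2 were lost without some single arrays, and that of Ly6e with the mean of its probe sets. Groups of 2 or 3 arrays are too small for a search for single outlying arrays.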

How the results depend on the processing

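The counts of called genes and the list medians of the 10 comparisons were recomputed under alternatives. With 1 count of other pathway genes added after seeing the data, these 21 results had 211 alternatives, of which 195 left them in place. A median counted as in place when it moved by less than the largest SD of array medians among the groups compared. That SD was 0.23 for A384T and I363V against WT hCD2, so a median could change sign and still count. By this rule 99 of 100 alternatives for the medians stayed in place. A count did so when equal or close in proportion, and many counts began at 0, so the tally says little about stability. Against Tconv the 4 genes called in wild-type Treg cells became 2 at an adjusted p under 0.01 and 2 to 5 when single arrays were left out. With WT GFP set against Tconv alone and the replicate block, 23 were called (18.4% of all genes), beside 0 (1.08% of all genes) in the same 4 arrays without it; a pair of numbers cannot establish that pairing. For R397W against WT hCD2 the count of 1 became 2 with the mean of all probe sets, where Ifit2 was added, 0 with only the groups compared, and 0 to 3 with arrays left out: 0 without WT hCD2 3, and 3 without R397W 3, where Ifit2 and Ifitm3 were added. For A384T against R397W the count of 3 became 1 with only the groups compared, 1 at an adjusted p under 0.01, 1 to 4 with arrays left out, and 0 with the replicate block, whose numbers do not pair these arrays. Gbp3 alone was called without A384T 1, A384T 2 or R397W 2; Ly6e was also lost without A384T 3, and Ifit2 without R397W 1. For A384T against their wild-type neighbours the replicate block, in a fit of these groups alone, gave 2 in place of 0, and 12 in place of 0 among the 77 other pathway genes. It changed no other count that was recomputed. The list median of A384T against WT hCD2, 0.06, ran from -0.18 to 0.24 with arrays left out. Of 338 alternatives for named genes, 24 lost a call, 8 gained one and 1 turned the direction: Tap1 in A384T against WT hCD2 was -0.05 with the mean of all probe sets. The causes were not tested. Groups of 2 or 3 arrays and values without their level over background limit what can be seen.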
